A study of Mus musculus with 18 samples.

Results

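Sncb (beta-synuclein) and Sncg (gamma-synuclein) are small soluble proteins of the synuclein family. They were taken by symbol from the deposited fibroblast comparison, in which Sncg had been seen to rise, and are 2 of the 16757 genes with an adjusted p there. In fibroblasts given Brn2 and Myt1l, Sncg was 6.26-fold higher when Ikzf1 and Ikzf4 were added, whereas Sncb was close to the limit of detection with and without them. In the chromatin of the multiome nuclei, whose RNA was not analysed here, Sncb was the gene with the signal. It lay in accessible chromatin in photoreceptor-like, bipolar-like and amacrine-like nuclei and far less in Muller glia-like nuclei, while the Sncg locus held close to the number of fragments that an even spread over the genome gives.

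The synucleins share an amino-terminal repeat region that folds into a helix on curved, acidic membranes. The family is known for members that bind synaptic vesicles and help vesicle-fusion (SNARE) complexes to assemble, which need not hold equally for Sncb and Sncg. Sncb is a protein of presynaptic terminals in most of the brain and in the retina. Sncg is best known from peripheral sensory and autonomic neurons, from retinal ganglion cells, for which it is a usual marker, and from white fat cells.

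The fibroblasts were mouse embryonic fibroblasts of the R26-M2rtTA line on C57BL/6, which carries a doxycycline-responsive transactivator. All 6 RNA-seq libraries came from cells infected with doxycycline-inducible lentiviruses for Brn2 (gene Pou3f2) and Myt1l and kept for 48 h in doxycycline, and 3 of them also received Ikzf1 and Ikzf4, zinc-finger transcription factors of the Ikaros family. The controls therefore carried Brn2 and Myt1l as well. The cultures were bulk, so a gain in cells that use a gene and a gain in RNA per cell cannot be told apart. The multiome ATAC libraries, which read open chromatin in single nuclei, were 1 control and 1 labelled Ikzf1/4. The control was C57BL/6 GLAST-CRE ERT2;RosaYFP retina with mCherry, in which the glial Glast promoter drives a tamoxifen-dependent Cre. Labels of the Ikzf1/4 library repeat its title in place of line, strain and tissue. Both carry the note of tamoxifen at 14 days, while run names in the file headers give 48 h.

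RNA-seq depth was 34966344 to 44270426 estimated reads per library. In the authors' deposited table Ikzf4 was higher by 8.54 (SE 0.15) and Ikzf1 by 7.76 (SE 0.17) on the log2 scale, in the direction of the labels. The control multiome library held 52119123 fragments and 1881 cells, and the Ikzf1/4 library 29358834 and 695 cells, with median depths of 6243 and 10992 fragments per cell. Only 3 cell barcodes occurred in both. The Ikzf1/4 library stood at 0.584 times the control (0.480 to 0.708) in the Ikzf1 window and at 1.44 times (1.24 to 1.66) in the Ikzf4 window, values that read chromatin and not the expression of the added factors. Nuclei fell into 13 clusters named by lists of marker genes. Although the control is labelled as Muller glia, 33.8% of its cells were Muller glia-like and 49.6% neuron-like (rod-like, cone-like, bipolar-like or amacrine-like). In the Ikzf1/4 library these shares were 19.1% and 74.7%. No cluster was named as retinal ganglion cells or horizontal cells.

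The sequences before both start sites are shown because one gene rose in the fibroblasts and the other was open in the multiome nuclei. Each run is the 250 bases before the RefSeq start site (GRCm38.p6), 5′ to 3′ on the gene's own strand, which is the minus strand for both. Sncb covers bases 54758860 to 54766622 of chromosome 13, and the printed run is bases 54766596 to 54766845. The start site used for Sncb, base 54766595, lies 27 bases inside the listed extent of the gene, so the last 27 bases of its run, the GC box among them, are within that extent. Sncg covers bases 34370274 to 34374669 of chromosome 14, and its run is bases 34374670 to 34374919. Capitals mark matches on either strand to the GC box (GGGCGG) in both genes and to the E-box (CANNTG) in Sncg.
Sncb: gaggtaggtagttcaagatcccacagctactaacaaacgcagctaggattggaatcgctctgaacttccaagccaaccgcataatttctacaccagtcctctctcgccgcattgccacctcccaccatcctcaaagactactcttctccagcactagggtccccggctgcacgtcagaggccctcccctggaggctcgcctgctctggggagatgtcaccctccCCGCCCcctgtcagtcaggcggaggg
Sncg: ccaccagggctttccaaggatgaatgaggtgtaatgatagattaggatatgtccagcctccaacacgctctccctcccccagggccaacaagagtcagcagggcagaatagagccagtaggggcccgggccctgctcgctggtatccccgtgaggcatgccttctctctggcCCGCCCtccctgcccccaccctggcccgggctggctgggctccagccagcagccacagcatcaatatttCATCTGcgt
Both runs were rich in G and C, at 58.8% for Sncb and 61.6% for Sncg, against a median of 52.0% over 27025 RefSeq promoters. They held 10 and 7 CpG dinucleotides. Each had 1 GC box, which 32.9% of promoters hold, lying 26 to 21 bases before the start site used for Sncb and 78 to 73 before that of Sncg. The E-box of Sncg lay 9 to 4 bases before its start, and 66.0% of promoters have at least 1. The Ikaros core GGGAA, found in 55.9% of promoters, matched neither run. Also without a match in either were the POU octamer ATGCAAAT (1.61% of promoters), the Myt1-type element AAAGTT (12.6%), the AP-1 element TGANTCA (6.87%) and the TATA box TATAAA (13.0%). These are letter matches in this window, not measured binding sites.

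Sncg (ENSMUSG00000023064) had a mean of 730.3 normalised counts over the 6 libraries in the authors' deposited table. Its log2 fold change was 2.65 (SE 0.12), the 8th largest of 24717 genes with a value in the authors' deposited table, the added factors included. Of these, 16757 had an adjusted p. Deposited folds of genes with few counts are not plain ratios, as told for Sncb below, so the rank does not weigh all genes alike. Cyp1a1 (2.68) and Pgr15l (2.64) stood next to it in the authors' deposited table. A mean and a fold of this size correspond to group means of about 201.3 without and 1259 with Ikzf1 and Ikzf4, if the fold is a plain ratio. Sncg thus went from a level below the median tested gene, 676 normalised counts, to one above it. The gene was chosen for this rise, so the values are a description. Of all genes tested in the authors' deposited table, 15.3% were called higher and 15.4% lower at an adjusted p under 0.05. Values per library are not given for either gene, because no table used here pairs the transcripts of the library files with genes.

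Sncb (ENSMUSG00000034891) averaged 4.39 normalised counts over the 6 libraries in the authors' deposited table, lower than all but 1.94% of tested genes. Its log2 fold change there was 0.07 (SE 0.16), and it was not called. The interval from the authors' deposited table, at 1.96 SE, ran from -0.25 to 0.39. The deposited SE was narrower than the 0.56 that counting error alone gives for a ratio of 3 libraries to 3 at this mean, so the deposited fold and SE of so low a gene are not plain ratios. Genes of like depth were seldom called: of 793 with means from 3 to 6 normalised counts, 2.14% passed, none with an absolute log2 fold change over 0.53.

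**Figure D1:**
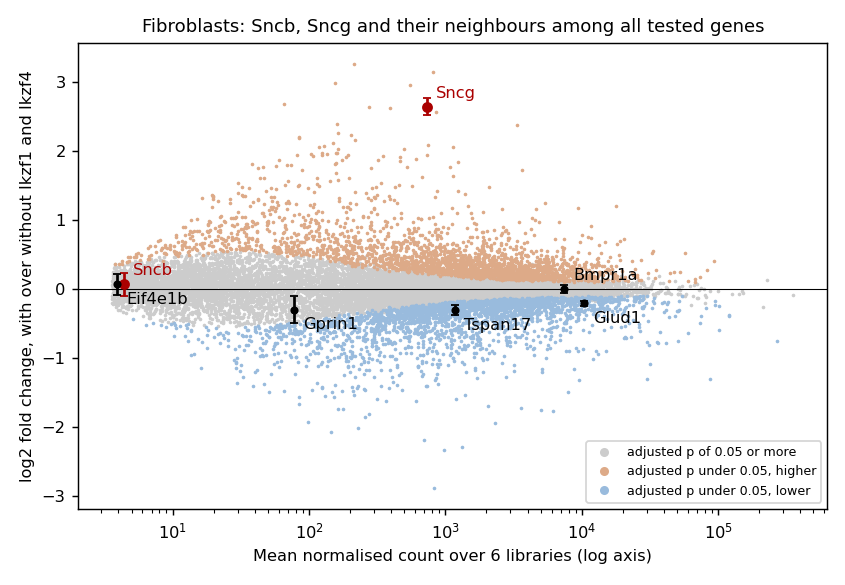
Log2 fold change (vertical axis, with over without Ikzf1 and Ikzf4) against the mean normalised count over 6 libraries (log axis) for the genes with an adjusted p in the authors' deposited table, Ikzf1 and Ikzf4 left out. Bars are deposited standard errors. Sncg (2.65) lies far above its tested neighbours in the genome, Glud1 and Bmpr1a, and Sncb (0.07) sits at the left edge among genes with few counts.

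Of the 4 protein-coding genes nearest to Sncg, only Glud1 and Bmpr1a were tested, and neither was called higher. Of all tested genes 15.3% were called higher and 15.4% lower, so so few genes say little about the neighbourhood. Mmrn2, an endothelial extracellular matrix gene, begins 834 bases beyond the start of Sncg and had a mean of 0.92 normalised counts and no adjusted p in the authors' deposited table. On the other side Fam25c was listed at 0 there. Glud1, glutamate dehydrogenase, fell by 0.21 (SE 0.04, DESeq2 adjusted p 5.35e-06, authors' deposited table). Bmpr1a, a bone morphogenetic protein receptor, had a value of 0.00 (SE 0.05, DESeq2 adjusted p 0.981, authors' deposited table). Around Sncb, Tspan17, a tetraspanin, fell by 0.30 (SE 0.08, DESeq2 adjusted p 3.97e-04, authors' deposited table). Gprin1 had -0.29 (SE 0.19) and Eif4e1b 0.07 (SE 0.15) without passing, and Cdhr2 was not tested in the authors' deposited table. Eif4e1b averaged 3.92 normalised counts there, below Sncb, so its fold and SE have the same limit.

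Genes of synaptic vesicles, of SNARE complexes and of vesicle recycling were called in both directions, with small changes. Of 18 tested synaptic vesicle and SNARE genes, 3 were higher and 2 lower, with a median log2 fold change of -0.13 against -0.0004 over all tested genes of the authors' deposited table. Pclo (0.78, SE 0.17), an active-zone scaffold, Sv2a (0.51, SE 0.14), a vesicle glycoprotein, and Syn2 (0.70, SE 0.22), a synapsin, rose per the authors' deposited table. Unc13a, which primes vesicles, fell by 0.94 (SE 0.14) and Rims1, another active-zone protein, by 0.29 (SE 0.10) in the same table of the authors. Vamp2 and Snap25, the SNARE proteins of synaptic vesicle and plasma membrane, had -0.10 (SE 0.06) and -0.30 (SE 0.17) and were not called in the authors' deposited table. Snap25 averaged only 5.42 normalised counts there, so its fold and SE have the same limit as those of Sncb. Vamp2 averaged 5923. Among 14 genes for SNARE chaperones and vesicle recycling, 3 were higher (Amph, Synj1 and Napb) and 3 lower (Picalm, Dnajc5 and Dnm1), with a median of -0.01 in the authors' deposited table. The shares called, 5 of 18 and 6 of 14, stand beside 30.6% of all tested genes in the authors' deposited table. None of these genes changed by more than 1 on the log2 scale.

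Markers of the cells in which Sncg is usually found were read next. Of 13 tested retinal ganglion cell markers in the authors' deposited table, 4 rose and 2 fell, where 15.3% of all tested genes were called higher and 15.4% lower. Those that rose were Isl1 (2.21, SE 0.21) and Pou4f1 (1.03, SE 0.20), transcription factors of ganglion and sensory neurons, Ebf3 (0.67, SE 0.10) and Sox11 (0.23, SE 0.09). Thy1 and Rbpms2, of the same list, fell by 0.53 (SE 0.07) and 0.30 (SE 0.10) in the authors' deposited table. Thy1 averaged 20772 normalised counts there, more than 98.6% of tested genes, in cultures of fibroblasts. Other tested members of the list, such as Rbpms (-0.15, SE 0.14) and Nefl (-0.04, SE 0.23), were not called by the authors' deposited table. Pou4f2, a defining ganglion cell factor, averaged 0.35 normalised counts in the authors' deposited table and was not tested. The list's median was 0.13. Peripheral neuron markers gave 1 higher, the sodium channel gene Scn9a (1.47, SE 0.20), and 3 lower of 11 tested in the authors' deposited table. Those were Tac1, Hand2 and Ntrk2, with values of -0.86 (SE 0.09), -0.48 (SE 0.10) and -0.85 (SE 0.21) in the authors' deposited table. Prph, a filament gene of peripheral neurons, averaged 6.66 normalised counts and was not called in the authors' deposited table. Th, of sympathetic neurons, averaged 0.16 there. In the adipocyte list 1 of 8 tested genes passed, the lipid droplet gene Plin4 (1.26, SE 0.23), at a mean of 26.3 normalised counts in the authors' deposited table. Adipoq and Lep, which encode hormones of fat cells, averaged 0.48 and 0.32 in the authors' deposited table.

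The fibroblast list fell in part, with 7 of 12 genes lower, 0 higher and a median of -0.35, beside 15.4% of all tested genes called lower in the authors' deposited table. Dcn (decorin) fell by 1.77 (SE 0.08), Col3a1 by 1.29 (SE 0.06) and Prrx1 by 0.57 (SE 0.06), per the authors' deposited table. Of 5 tested Schwann cell genes only Cdh19 (1.31, SE 0.14) passed, where 30.6% of all tested genes did, while Sox10, the defining factor of those cells, had a mean of 1.497 normalised counts in the authors' deposited table. No endothelial (5 tested), macrophage (5) or skeletal muscle (2) marker was called by DESeq2 in the authors' deposited table, and 0, 1 and 1 of them had an unadjusted p under 0.05. These shifts stand beside the rise of Sncg, and their part in it was not tested.

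**Figure D2:**
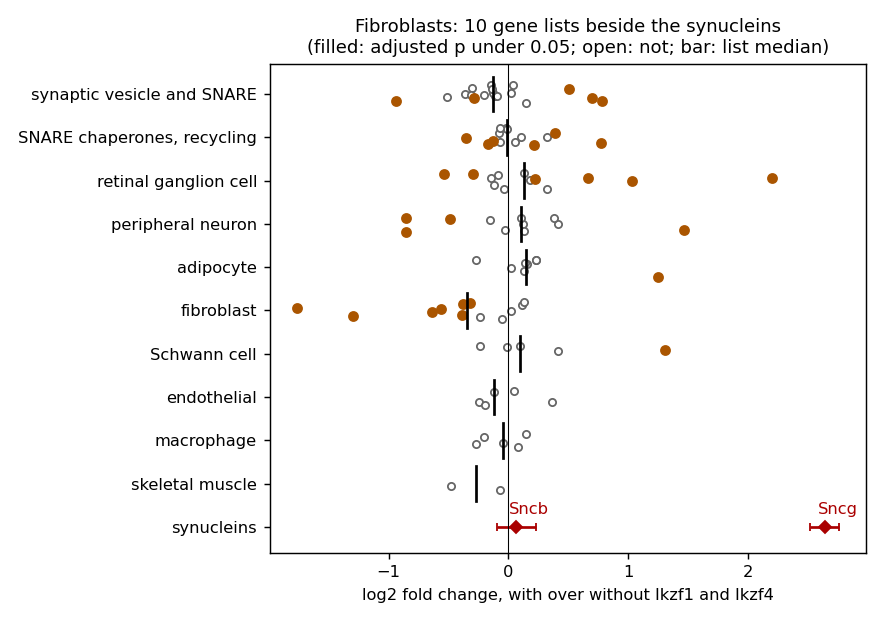
Log2 fold change (horizontal axis, with over without Ikzf1 and Ikzf4) of each tested gene of 10 lists and of Sncb and Sncg (diamonds with standard errors) in the authors' deposited table. Filled points have an adjusted p under 0.05 and black bars are list medians; no listed gene lies as far to the right as Sncg, and Isl1 at 2.21 comes nearest.

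In the multiome, accessibility was read in windows of each gene and 2 kb on both sides, as CPM, fragments per 1000000 fragments of the cells in question. Each library was made once, so no test between them is possible, and the intervals given are 95% exact intervals that cover counting error only. The Sncb window held 1179 fragments in control cells and 923 in Ikzf1/4 cells, or 86.2 and 98.8 CPM. This was 19.9 and 22.9 times an even spread of fragments over the genome, and per kb it exceeded 97.8% of 21887 windows. By contrast, the Sncg window held 45 and 32 fragments, or 3.29 and 3.42 CPM, where an even spread gives 3.08. Sncg stood at the percentile of 37.6 per kb. Barcodes that were not called cells had 14.3 and 13.1 CPM at Sncb and 6.04 and 5.70 at Sncg. At Sncb the cells stood well above this level, and at Sncg they stood below it. These barcodes take in any nuclei outside the fragment limits, so they are not a pure background. Of the genes beside Sncg, control cells were also lower at Fam25c (3.29 against 6.28 CPM) and Mmrn2 (14.3 against 16.8). They were higher at Glud1 (85.5 against 24.8) and Bmpr1a (81.0 against 41.0). The order of the 2 genes was the same in both libraries.

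The ratio of the Ikzf1/4 to the control library was 1.15 (1.05 to 1.25) for Sncb and 1.04 (0.640 to 1.67) for Sncg. Over the 14805 windows with at least 200 fragments the median ratio was 1.06, and 3.34% of windows differed by 1.5-fold or more in either direction. Neither synuclein was among them. Sncg had too few fragments to be one of those windows. Shares of neuron-like cells, 49.6% and 74.7%, moved with the library. Within neuron-like cells alone the Sncb level was 132.6 CPM in control and 129.3 in Ikzf1/4 cells, so that Ikzf1/4 stood at 0.975 times the control (0.888 to 1.07). That factor was 1.19 (0.923 to 1.54) in rod-like, 0.902 (0.768 to 1.06) in cone-like and 0.896 (0.777 to 1.03) in bipolar-like cells. Cone-like cells of the control came mostly from cluster 1 (249 cells) and those of the Ikzf1/4 library from cluster 10 (104 cells). A ratio above 1 was thus seen over all cells but not within the neuron-like cells as a whole. The cause was not tested.

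By class, rod-like cells, the photoreceptors of dim light, had 125.8 CPM of Sncb (101 to 155) in control nuclei and 149 (130 to 170) in Ikzf1/4 nuclei. Cone-like cells had 139 (125 to 155) and 125.8 (112 to 141), and bipolar-like cells, which relay photoreceptor signals, had 136 (124 to 149) and 122 (109 to 136). Rod-like cells were thus lowest of the 3 classes in the control and highest in the Ikzf1/4 library, with overlapping intervals in each, so no order among them is given. Amacrine-like cells, inhibitory interneurons, had 92.6 (70.7 to 119) from 60 fragments, and 70 of these 73 cells were from the control. In the control alone they had 92.7 (70.0 to 120), an interval below those of cone-like and bipolar-like cells that overlapped that of rod-like cells. Over both libraries, Muller glia-like cells followed at 17.6 (14.2 to 21.5) and microglia-like cells at 16.1 (10.1 to 24.4), close to the level of barcodes that were not cells. The members' windows were left out of the clustering, so the classes were not made with them.

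Between neuron-like and Muller glia-like cells Sncb differed 6.97-fold (5.51 to 8.92) in the control and 9.57-fold (6.09 to 16.0) in the Ikzf1/4 library. The levels behind the control ratio were 132.6 and 19.0 CPM, and those behind the other 129.3 and 13.5. With both libraries together the ratio was 7.45. Of the 14805 windows, 1.32% reached a ratio of 4 and the median window had 1.26. Of the synaptic gene lists, 1 of 20 synaptic vesicle and SNARE windows reached 4, Snap25 at 5.39, and 0 of 14 in the chaperone and recycling list. Their medians were 1.62 and 1.47. Within the Muller glia-like clusters Sncb varied in the control from 8.37 (2.28 to 21.4) in cluster 8 and 9.45 (4.08 to 18.6) in cluster 6 to 26.5 (19.0 to 36.0) in cluster 2. Clusters 5, 6 and 8 each had 1 marker of another class and 0 of their own among their 10 leading genes, although all 8 Muller glia markers measured were higher in each of them than elsewhere. Cluster 2 also had 0 of its own there, with 0 of another class and all 8 markers higher. Its median log2 difference of those markers was 1.196, beside 1.275, 1.266 and 1.507 in clusters 5, 6 and 8. Cluster 2 is thus not marked more clearly as Muller glia than these. The ratios of the 2 libraries are therefore set side by side and not compared. With cluster 2 alone as the Muller glia-like cells, the Sncb ratio was 5.00 (3.66 to 7.01) in the control, while only 1 Sncb fragment came from that cluster in the other library.

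The Sncg window held 4 fragments in rod-like, 14 in cone-like, 21 in bipolar-like, 4 in amacrine-like, 16 in Muller glia-like and 4 in microglia-like cells of both libraries. Levels ran from 1.84 CPM (0.501 to 4.71) in rod-like to 6.17 (1.68 to 15.8) in amacrine-like cells, with overlapping intervals. The neuron-like to Muller glia-like ratio was 1.48 (0.665 to 3.63) in the control and 0.581 (0.234 to 1.63) in the Ikzf1/4 library. Over both libraries it was 1.05 (0.582 to 2.01), and the upper bound lies below the lower bound of 6.06 for Sncb. These intervals cover counting error only. Part of the Sncg window overlaps Mmrn2, whose own window was at 11.7 CPM in neuron-like and 20.2 in Muller glia-like cells.

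**Figure D3:**
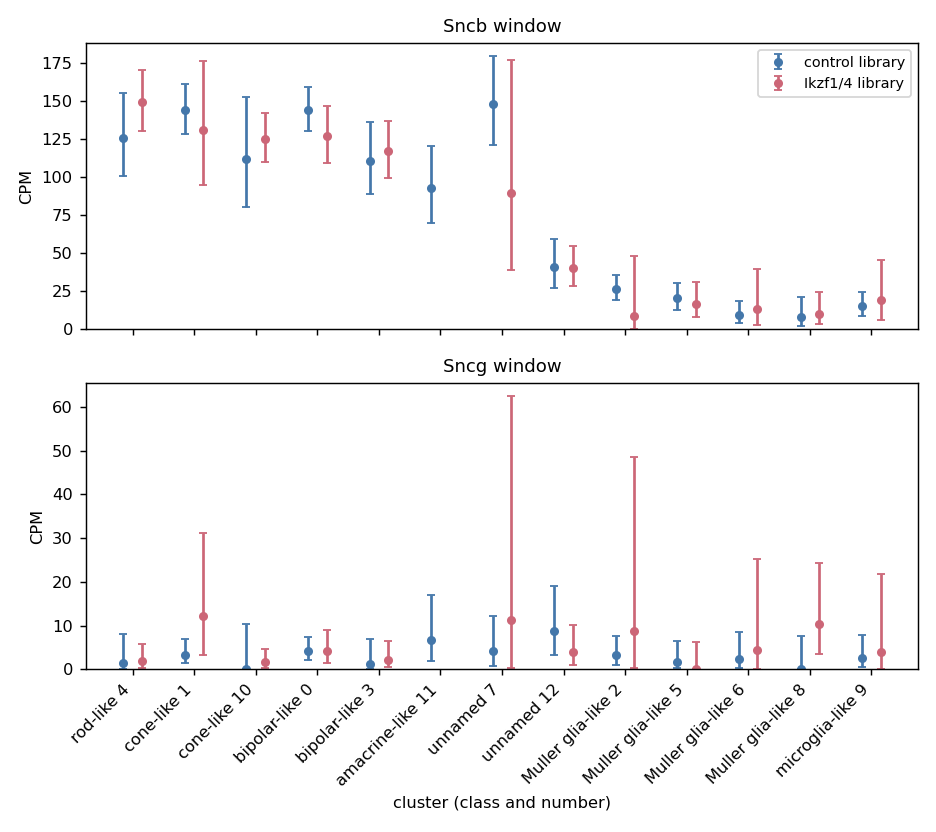
CPM in the Sncb (top) and Sncg (bottom) windows in each cluster (horizontal axis) of the control and Ikzf1/4 libraries, with 95% exact Poisson intervals; groups under 10 cells are left out, and the vertical axes differ. Sncb is high in the rod-, cone-, bipolar- and amacrine-like clusters and in unnamed cluster 7 and low in Muller glia-like and microglia-like clusters of both libraries, and Sncg is low in all.

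Unnamed cluster 7, almost all of it from the control (142 of 154 cells), was at 148 CPM for Sncb (121 to 179) in that library, the level of the neuron-like clusters. Cluster 12, also unnamed, had 41.0 (27.3 to 59.3) in the control and 40.2 (28.8 to 54.5) in the Ikzf1/4 library, between neurons and glia.

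Along Sncb the fragments gathered at 3 places, which were chosen after the profile was seen and took in 81.5% of the window's fragments. They lay within 500 bases of the start site, 5500 to 6500 bases into the gene, and 7500 to 8500 bases from the start, across the gene's end. In neuron-like cells of both libraries they held 24.3, 35.3 and 46.7 CPM. Muller glia-like cells had 2.04, 1.11 and 13.2. In the control the neuron-like level was 9.68-fold higher (5.14 to 20.5) at the start and 29.3-fold (12.4 to 90.8) inside the gene, but 3.17-fold (2.39 to 4.28) at its end. Those ratios rest on 10, 5 and 57 Muller glia-like fragments. The Ikzf1/4 library gave 34.2 (6.06 to 1360) at the start and 47.5 (8.44 to 1884) inside the gene, each from 1 Muller glia-like fragment, and 4.84 (2.84 to 8.96) at the end, from 14. With cluster 2 alone, control ratios were 7.49 (3.15 to 23.4), 56.6 (10.1 to 2245) and 2.12 (1.48 to 3.13), from 5, 1 and 33 fragments of that cluster. Most of the fragments that Muller glia-like cells had in the Sncb window, 71 of 95, were at that last place. At the start of Sncg, whose upstream bases are printed above, 1 kb held 3 fragments in control cells and 7 in Ikzf1/4 cells, or 0.219 CPM (0.0452 to 0.641) and 0.749 (0.301 to 1.54), with overlapping intervals. The same length at the start of Sncb held 380 fragments in all cells of both libraries.

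**Figure D4:**
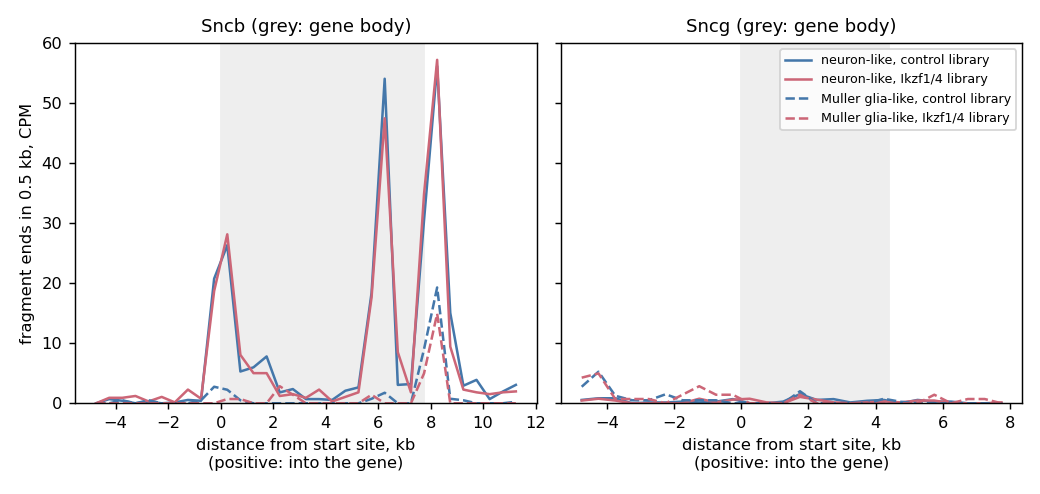
Fragment ends in 0.5 kb, as CPM (vertical axis) by distance from the start site (horizontal axis, kb, positive into the gene) at Sncb and Sncg, for neuron-like (solid) and Muller glia-like (dashed) cells of both libraries. Sncb has 3 peaks in neuron-like cells. In Muller glia-like cells the one at the gene's end is by far the tallest. Control Muller glia-like cells also show a small rise at the start (2.76 CPM before and 2.25 after it). Sncg has no peak of like height to those of Sncb in neuron-like cells.

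At the middle place, bipolar-like cells held 36.9 CPM (30.7 to 43.9) in control nuclei and 22.4 (17.2 to 28.7) in Ikzf1/4 nuclei. They came from cluster 0 (383 control and 111 Ikzf1/4 cells) and cluster 3 (118 and 118). Of 8 bipolar markers measured, 6 were higher by over 0.5 on the log2 scale in cluster 0 and 7 in cluster 3. Cluster 0 had 0 of these markers among its 10 leading genes, and cluster 3 had 2. Cluster 3, led by Trpm1 and Prkca of rod and ON bipolar cells, had 14.9 and 16.1 there, an Ikzf1/4 to control ratio of 1.08 (0.512 to 2.40). Cluster 0 had 43.6 and 28.4, a ratio of 0.651 (0.444 to 0.937), an interval that does not hold 1. At a finer resolution bipolar-like cells of the libraries fell largely into separate clusters. One of them, led by Lmo3 and Irx6, had 58.7 CPM (44.4 to 76.0) from 127 control cells and 0 fragments from 4 Ikzf1/4 cells, and the cluster led by Trpm1 had 13.9 (8.09 to 22.2) from 95 Ikzf1/4 cells and 0 fragments from 2 control cells. In the 4 finer clusters with at least 6 bipolar-like cells of each library, Ikzf1/4 nuclei were lower in 2 and higher in 2. They had 25.5 CPM (17.2 to 36.4) against 55.6 (28.7 to 97.1) in a cluster led by Drd1 and Neurod4 (78 and 16 cells), and 15.8 (3.25 to 46.1) against 22.7 (13.0 to 36.8) in an unnamed one (22 and 108). They had 34.7 (11.3 to 81.1) against 24.5 (15.3 to 37.1) in a cluster led by Ntng1 and Car8 (23 and 145). In another unnamed cluster they had 186.9 (80.7 to 368) against 32.0 (19.6 to 49.5), with 8 fragments from 6 Ikzf1/4 cells beside 103 control cells, and only there did the intervals not overlap. The last 3 of these rest on 3, 5 and 8 Ikzf1/4 fragments. This place was picked from several after the values were seen. Rod-like cells had 38.0 CPM (24.8 to 55.7) there in control and 54.3 (43.1 to 67.5) in Ikzf1/4 nuclei. Cone-like cells had 39.2 (31.8 to 47.9) and 34.1 (26.9 to 42.7). In bipolar-like cells the Ikzf1/4 to control ratio was 0.608 (0.442 to 0.828) at this place. It was 0.887 (0.631 to 1.24) at the start and 1.06 (0.834 to 1.33) at the end of the gene.

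The windows most like Sncb were sought over 17 sums of a cluster and library with at least 50 cells, by Pearson's r of log2(CPM + 1). The 5 closest were Btbd8 (0.970), Snap91 (0.970), Pnpla3 (0.968), Stxbp5l (0.964) and Nefh (0.959). This r does not weigh the size of a difference. Neuron-like and Muller glia-like levels over both libraries were 131 and 17.6 CPM at Sncb. They were 69.6 and 31.7 at Btbd8, 143 and 23.3 at Snap91, and 88.5 and 25.9 at Pnpla3. Stxbp5l had 138 and 40.2, and Nefh 42.5 and 7.22. Snap91 is a clathrin adaptor of synaptic vesicle recycling, Stxbp5l a syntaxin-binding protein, and Nefh the heavy neurofilament subunit. Btbd8 and Pnpla3 are not described here, and a shared function of these windows was not tested. Of the windows with at least 200 fragments, 89 had an r of 0.9 or more, and the sums share their libraries and cells. Sncg was under that minimum, so no windows are named as like it. Of the genes beside Sncb, Gprin1 also differed between neuron-like and Muller glia-like cells, by 5.25-fold (3.86 to 7.30). Eif4e1b and Tspan17, on the other side, had smaller ratios of 1.93 (1.67 to 2.24) and 1.92 (1.67 to 2.21), and Cdhr2, beyond Gprin1, had 2.37 (1.79 to 3.18).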

How the data were processed

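Both genes and all gene lists were chosen with earlier results of these data known. The authors deposited a DESeq2 comparison, per the labels, with a mean signal (normalised counts), log2 fold changes and standard errors, a Wald score, and p-values before and after adjustment. Neither its version nor any shrinkage of folds is stated. Genes were called at an adjusted p under 0.05. Salmon estimated counts per transcript, deposited by the authors, gave depth alone. Fragment files, made with cellranger-arc 2.0.1 and an mm10 reference per the file headers, list unique fragments with counts of read pairs. A barcode was kept as a cell with 3000 or more fragments, a 4-fold enrichment within 500 bp of gene ends and fragments below the 99th percentile; no other doublet caller was run. A fragment counted in every window it overlapped. Clusters came from the leading components of weighted presence of fragments in autosomal windows, with 2 components that tracked depth left out. Windows of the members and of genes overlapping them were not used. The clustering was run with leidenalg 0.10.2 at resolution 1. Ratios have exact conditional binomial and levels exact Poisson intervals (scipy 1.17.1). Only the ratio intervals were run on simulated counts. Those counts came from the counting model that the intervals assume, without spread between cells, so spread between cells was not tested. Named genes were both members, the 2 nearest protein-coding genes on each side, up to 3 called genes per list and direction, and the 5 windows most like a member; others were chosen after their values were seen. Positions and sequences are from RefSeq (GRCm38.p6). Alternatives varied the cell minimum, window, scaling, call rule and clusters. Fibroblast ATAC peaks, whose coordinates did not match this build, and the single-cell RNA were not analysed here. Whether replicates came from separate cultures is not stated, so p-values measure the spread between these libraries.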

Additional observations from a re-analysis of the deposited data

How the results depend on the processing

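Requiring an absolute log2 fold change over 1 as well left 0 called genes in both synaptic lists, 2 in the retinal ganglion cell list, 1 in the peripheral neuron list and 2 in the fibroblast list. With means of at least 100 normalised counts, 0 adipocyte genes were called. That minimum also left 2 of 4 higher calls in the retinal ganglion cell list (without Isl1 and Pou4f1), 0 of 1 in the peripheral neuron list (without Scn9a) and 2 of 3 in the synaptic vesicle list (without Syn2), since it removes those genes from the test. Shares of all tested genes under these call rules were not worked out, so these counts are not read as high or low for a list. With Muller glia-like cluster 2 alone, the neuron-like ratio of Sncb in the control was 5.00 (3.66 to 7.01), an alternative chosen after seeing the data. The Sncb ratio between libraries was 1.09 (0.994 to 1.18) per fragments in gene windows, and 1.18 to 1.22 under the other alternatives, all within the interval printed for it. The cause was not tested. The other alternatives for the multiome ratios, clusters at resolution 2 (also chosen after seeing the data) among them, gave values within the counting interval of their result. At Sncg, depth limits every comparison. The per-gene edgeR, DESeq2 and limma fits and the fibroblast ATAC alternatives were not run. No paired analysis was possible because neither gene has values per fibroblast library here and the multiome has 1 library per group.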
